A study of Mus musculus with 12 samples.

Results

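The genes described here are 44 genes of the mouse cell cycle and of DNA replication, chosen by name. They comprise mitotic genes, the G1 and G1/S cyclins, the inhibitor Cdkn1a, replication genes, enzymes of deoxynucleotide supply and the transcription factors Foxm1 and E2f1. Of the 44, 41 were among the 15846 genes of the deposited table, and Ccnb1, Plk1 and Stmn1 were not analysed here. Liver RNA was sequenced from C57BL/6 mice at an age of 5 months, with 12 mice in 4 groups of 3. The groups were wild type on chow (WT chow), Shp Hep-/- on chow (KO chow), wild type on the HFCF diet (WT HFCF) and Shp Hep-/- on the HFCF diet (KO HFCF). Shp Hep-/- is a knockout of Shp in hepatocytes, and Shp has the gene symbol Nr0b2. It encodes an orphan nuclear receptor that lacks a DNA-binding domain and acts as a transcriptional corepressor. The promoter that drove the deletion, the sex of the mice, the make-up of the diet and the time on it are not given in the sources used here. The comparisons were of diet within each genotype, of genotype within each diet, and of the diet effect between genotypes (the genotype by diet interaction).

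Most hepatocytes of an adult liver are quiescent, and they re-enter the cell cycle after injury or loss of tissue. Cyclin D1 drives passage through G1, E2F factors then switch on the genes for replication and nucleotide supply, and a later wave of mitotic genes is transcribed before division. Immune and other non-parenchymal cells of the liver also divide and transcribe these genes. In whole-liver RNA, more cells that express a gene and more RNA per cell cannot be told apart.

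The libraries held 13967116 to 18324134 counts. Nr0b2 stood between 22.4 and 53.4 CPM (counts relative to library size, with TMM factors) in the 6 WT livers and between 0.21 and 1.01 CPM in the 6 KO livers, so the labels and the targeted gene matched. Hepatocyte markers (7 of 8 listed in the table) were abundant in all 12 livers, with sums of 38867 to 51247 CPM. The first WT HFCF liver stood apart from the other 2 of its group. Per degree of freedom, the chi-square of its counts against theirs was 35.2 and 37.8, while those 2 livers gave 12.2, and calls that change without it are given below.

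The cell cycle genes were low in these livers. Their counts ran from 0 to 599 per liver, and their median was 0.332 FPKM (counts per length and library total) in WT chow against 3.16 FPKM over all genes. On this length-scaled measure the replication clamp Pcna was highest in WT chow at 4.88 ± 0.326 FPKM (SD, n = 3), followed by the thymidine kinase Tk1 at 3.64 ± 0.312 and Ccnd1, cyclin D1, at 3.49 ± 0.775. The last 2 did not differ beyond their spread. Mki67, the gene of the proliferation antigen Ki-67, stood at 0.222 FPKM, and the spindle checkpoint kinase Bub1 was lowest at 0.0157 FPKM. A filter on low counts left 37 of the 41 genes for testing, among 14736 genes tested. Of these 37, 27 had a mean below 1 FPKM in WT chow, and 12 did not reach the filter's level of 0.686 CPM in all 3 WT chow livers. Those 12 could be tested only because other livers were higher, so the counts below are counts of tested genes and not of all 41.

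**Figure D1:**
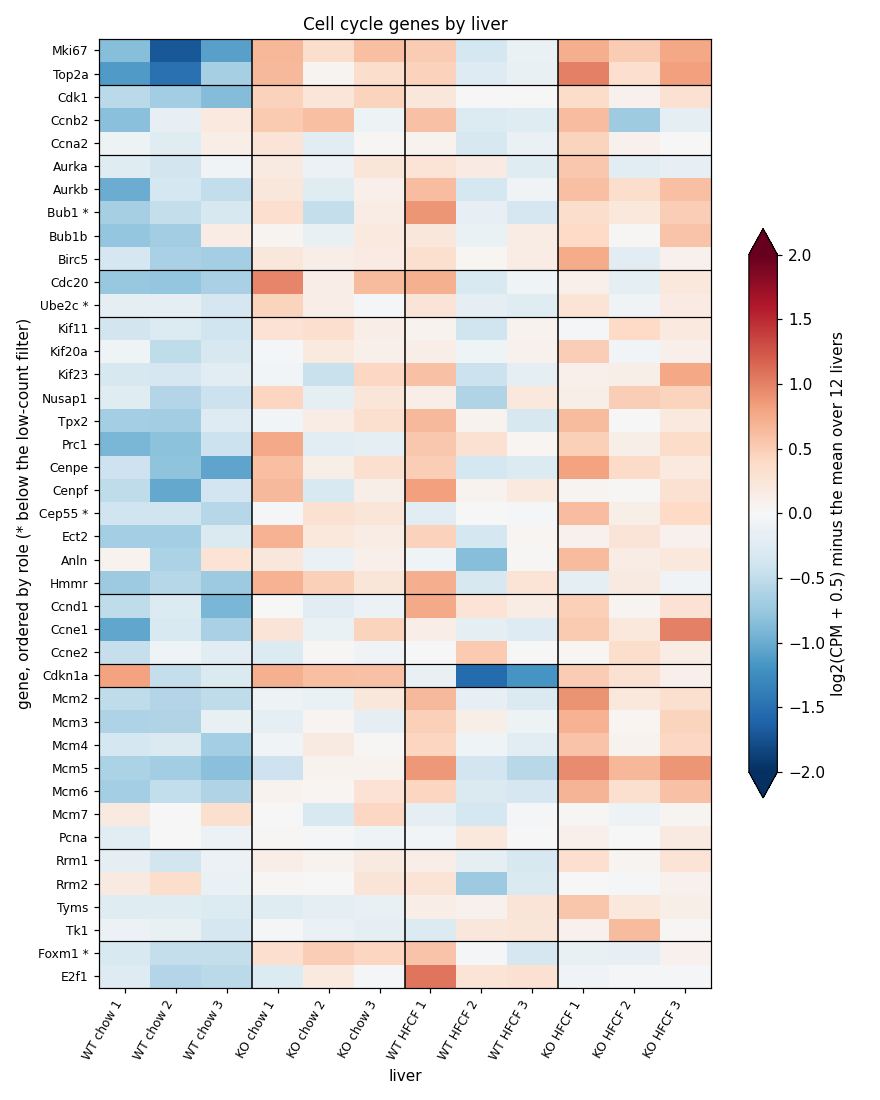
Heat map of the 41 measured genes, ordered by role (rows), in the 12 livers (columns); color gives log2(CPM + 0.5) minus the gene's mean over the 12 livers, and an asterisk marks the 4 genes below the filter on low counts. Most mitotic genes are below their mean (blue) in the WT chow livers, the first WT HFCF liver is above it for E2f1, Bub1 and Ccnd1, and Pcna differs little between livers.

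Loss of Shp on chow was accompanied by higher RNA of 12 of the 37 tested genes, and none fell (edgeR's quasi-likelihood test, Benjamini-Hochberg adjusted p under 0.05 over all tested genes). Here and below, a called gene is one that passed this test in the fit of all 12 livers, unless another tool or set of livers is named. The 12 were Mki67, Top2a, Cdk1, Birc5, Cdc20, Kif11, Prc1, Cenpe, Ect2, Hmmr, Ccne1 and Mcm6. Of these, only Mki67, Top2a, Kif11, Ect2 and Mcm6 reached the filter's level in all 3 WT chow livers. The others were tested only because other livers were higher, which favors positive values here. Over all tested genes, 9.72% were called higher and 5.82% lower in this comparison. The median log2 fold change of the 37 genes was 0.62, against 0.00413 over all tested genes. The count depended on single livers: it was 6 without the first WT chow liver, 7 without the second, 6 without the third and 6 without the first KO chow liver. The number of all genes called also varied with 1 liver left out, from 1152 to 2788, against 2289 in the fit of all 12.

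In WT mice the HFCF diet went with higher RNA of 10 of the 37 genes, namely Mki67, Top2a, Cdk1, Birc5, Cdc20, Prc1, Cenpf, Hmmr, Ccnd1 and E2f1, and none fell by edgeR's test. Of the 10, only Mki67, Top2a, Ccnd1 and E2f1 reached the filter's level in all 3 WT chow livers, which favors positive values of the others. Over all tested genes, 7.76% were called higher and 5.9% lower, and the median log2 fold change of the 37 genes was 0.64 against -0.00332 over all genes. The count was 4 without the first WT HFCF liver, 4 without the first WT chow liver and 5 without the second. With 1 liver left out, the number of all genes called ran from 1100 to 2264, against 2013 in the fit of all 12. This comparison and that of genotype on chow share the 3 WT chow livers, so the calls in them are not independent of each other.

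The diet changed none of the 37 genes in KO livers by edgeR's test, where 2.65% of all tested genes were called, 1.47% higher and 1.18% lower. At an unadjusted p under 0.05 there were 6, all higher, and DESeq2 and limma voom called 0. On HFCF, Cdkn1a and Mcm6 rose in KO against WT, 2 of 37 beside 19.1% of all tested genes called, 10.6% higher and 8.52% lower. That count was 7 without the first WT HFCF liver, where Mki67, Top2a (1.04, adjusted p = 0.0183), Mcm2 (0.81, adjusted p = 0.0259), Mcm5 (1.53, adjusted p = 0.000433) and Rrm1 (0.50, adjusted p = 0.0129) also passed, and it was 5 with the replicate number as a block and 4 with limma voom. In the interaction edgeR called 0 of 37 genes, beside 0.794% of all tested genes called in either direction. There, 11 genes passed an unadjusted p under 0.05, all with a lower diet effect in KO, DESeq2 called 2 and limma voom called 0. The median log2 fold changes of the 37 genes in these 3 comparisons were 0.15, 0.23 and -0.32, against -2.59e-05, 0.0201 and -0.000656 over all tested genes.

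**Figure D2:**
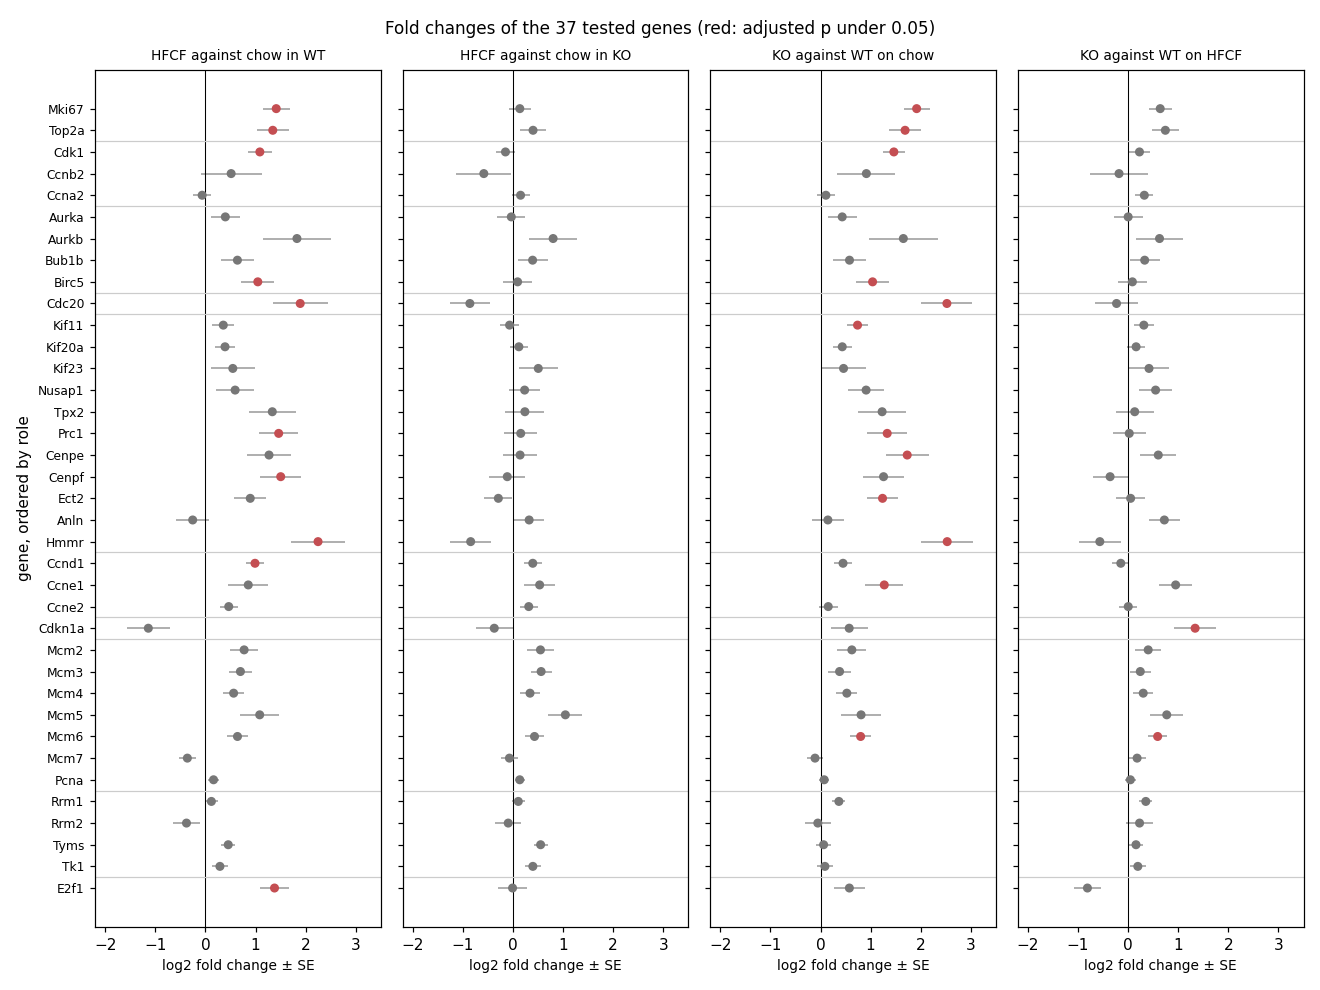
Log2 fold change of each tested cell cycle gene (points, with the standard error as bars) in the 4 comparisons of 2 groups; red marks an adjusted p under 0.05 and gray lines separate the roles. Red points number 10 for diet in WT, 0 for diet in KO, 12 for genotype on chow and 2 for genotype on HFCF, and all lie above 0.

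The mitotic genes made up most of the calls. This group covers Mki67, topoisomerase, the mitotic cyclins and kinases, the partners of the anaphase-promoting complex and the proteins of spindle, kinetochore and cytokinesis. Of 27 listed, 24 were in the table and 21 were tested. In KO against WT on chow 10 of the 21 rose and the median log2 fold change of the 21 was 1.23, and with diet in WT 8 rose and the median was 1.04. Over all tested genes, 9.72% and 7.76% were called higher in these comparisons, with medians of 0.00413 and -0.00332. Of the 21, 11 had passed the filter only through livers higher than WT chow, which favors positive values in both. The 10 that reached its level in all 3 WT chow livers had medians of 0.52 and 0.47, with 4 (Mki67, Top2a, Kif11 and Ect2) and 2 (Mki67 and Top2a) called. With diet in KO edgeR, DESeq2 and limma voom called none, the median was 0.14 and 0 passed an unadjusted p under 0.05. For genotype on HFCF edgeR called none, the median was 0.23 and 3 passed an unadjusted p under 0.05, while DESeq2 and limma voom called Mki67 (adjusted p = 0.0475 and 0.0376). In the interaction edgeR called none, the median was -1.02 and 9 passed an unadjusted p under 0.05, while DESeq2 called Mki67 and Cdc20 and limma voom called 0. Of all tested genes, edgeR called 2.65% with diet in KO, 19.1% for genotype on HFCF and 0.794% in the interaction. The CPM of the 24 genes summed to 21.9 to 30.4 in WT chow, 44.4 to 59.3 in KO chow, 34.2 to 57.0 in WT HFCF and 48.2 to 64.2 in KO HFCF. The WT chow livers thus had the lowest sums and did not overlap with any other group, while the other 3 groups overlapped.

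Mki67 (ENSMUSG00000031004, chr7:135689787-135716379, minus strand, build mm10) was at 2.93, 1.42 and 2.42 CPM in WT chow, while the KO chow livers had 9.3, 7.38 and 8.89 CPM. In WT HFCF it was at 8.36, 4.38 and 5.15 CPM, and in KO HFCF at 9.74, 8.32 and 10.1 CPM. All WT chow livers lay below all others, the first WT HFCF liver reached the KO range, and its 2 group mates lay between. Mki67 rose with loss of Shp on chow by a log2 fold change of 1.92 ± 0.26 (SE; adjusted p = 0.000414, edgeR) and with diet in WT by 1.41 ± 0.27 (adjusted p = 0.00405). It did not pass with diet in KO (0.14 ± 0.22, adjusted p = 0.804) nor in the interaction (-1.28 ± 0.35, adjusted p = 0.112 with edgeR and 0.0206 with DESeq2). For genotype on HFCF the log2 fold change was 0.64 ± 0.23 (adjusted p = 0.0648), and without the first WT HFCF liver it was 0.97 and passed (adjusted p = 0.00506).

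Top2a (chr11:98992942-99024189, minus strand), which encodes the topoisomerase that untangles DNA before segregation, followed the same order of groups. It was at 1.5, 1.06 and 2.28 CPM in WT chow and at 6.42, 4.07 and 5.1 CPM in KO chow. The HFCF livers had 5.57, 3.2 and 3.48 CPM in WT and 8.36, 5.03 and 7.31 CPM in KO. Top2a rose in KO on chow (1.69 ± 0.31, adjusted p = 0.0031) and with diet in WT (1.34 ± 0.32, adjusted p = 0.0143). The WT chow livers did not overlap with either group, and the diet call was lost without the first WT HFCF liver and without the first or second WT chow liver (adjusted p up to 0.066).

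Cdk1 (chr10:69336634-69352938, minus strand), the kinase that triggers mitosis, was at 1, 0.849 and 0.691 CPM in WT chow and at 2.49, 2.07 and 2.46 CPM in KO chow. It stood at 2.05, 1.67 and 1.68 CPM in WT HFCF and at 2.33, 1.82 and 2.19 CPM in KO HFCF. The 9 livers outside WT chow thus lay within 1.67 to 2.49 CPM, all above WT chow. Cdk1 rose in KO on chow (1.46 ± 0.23, adjusted p = 0.000918) and with diet in WT (1.09 ± 0.23, adjusted p = 0.00833), and both calls held under every alternative run. It reached the filter's level, which uses no TMM factors, in only 2 of the 3 WT chow livers, which favors positive values in both comparisons. Of its cyclin partners, Ccna2 had log2 fold changes of 0.11 ± 0.18 for genotype on chow and -0.07 ± 0.18 for diet in WT, and Ccnb2 had 0.91 ± 0.58 and 0.51 ± 0.61, none of which passed. Exons of Ccna2 overlap the opposite-strand gene Exosc9 over 12.5% of their length, and the strand setting of the counting is not known.

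**Figure D3:**
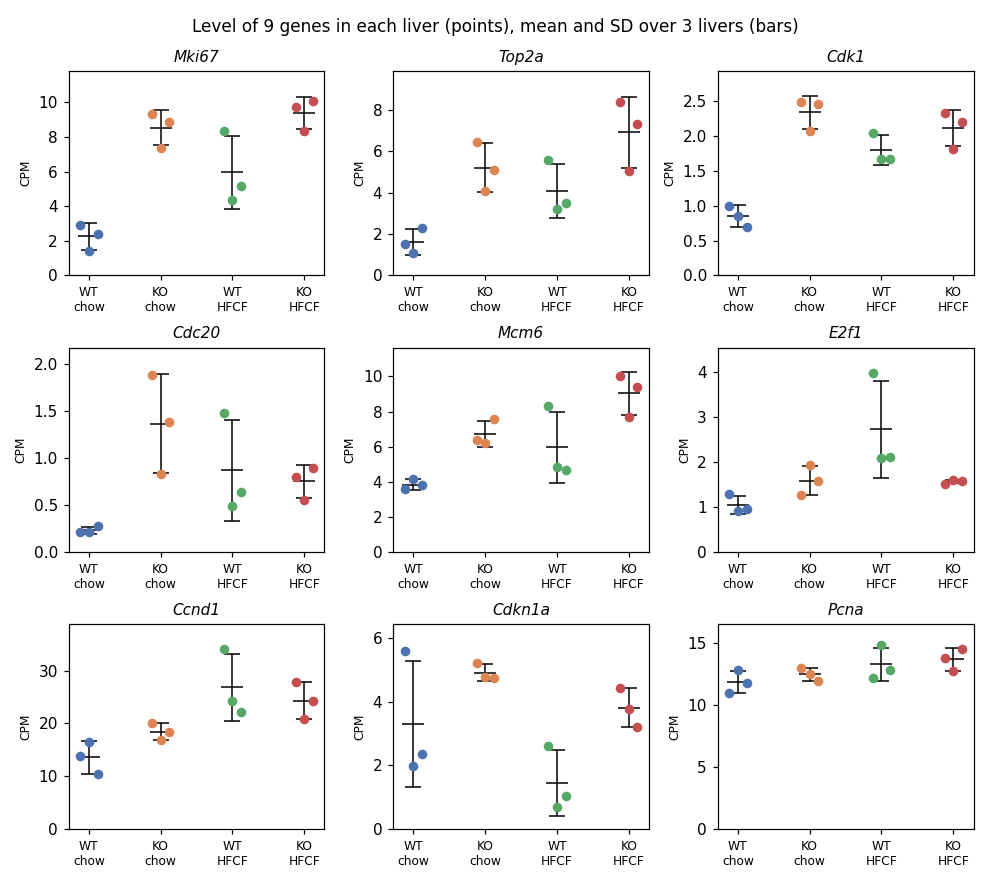
CPM of 9 of the cell cycle genes in the 12 livers, 1 panel per gene, with points for livers and bars for the mean and SD of each group of 3 (axes start at 0). Mki67, Top2a, Cdk1 and Cdc20 are lowest in the 3 WT chow livers, and Cdkn1a has its lowest group mean in WT HFCF.

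Cdc20 (chr4:118432900-118437352, minus strand), the activator of the anaphase-promoting complex, and Hmmr (chr11:40701387-40733437, minus strand), a spindle-associated protein, had the largest log2 fold changes of the 37 genes. Both rested on few reads in WT chow. Cdc20 had 3, 3 and 4 counts there, or 0.215, 0.212 and 0.277 CPM, and reached 1.88, 0.828 and 1.39 CPM in KO chow, 1.48, 0.487 and 0.644 in WT HFCF and 0.799, 0.559 and 0.9 in KO HFCF. Hmmr had 2, 3 and 2 counts in WT chow, or 0.143, 0.212 and 0.138 CPM, against 1.22, 0.966 and 0.756 CPM in KO chow. In the HFCF livers Hmmr was at 1.25, 0.348 and 0.773 CPM in WT and 0.436, 0.699 and 0.506 CPM in KO. No liver outside WT chow was as low as the WT chow livers in either gene. Cdc20 rose in KO on chow by 2.52 ± 0.51 (adjusted p = 0.00553) and with diet in WT by 1.89 ± 0.55 (adjusted p = 0.0358). Hmmr rose by 2.53 ± 0.52 (adjusted p = 0.00632) and 2.25 ± 0.54 (adjusted p = 0.015) in these comparisons. Their interaction terms were -2.75 ± 0.68 (adjusted p = 0.08) and -3.09 ± 0.68 (adjusted p = 0.0539) with edgeR, and DESeq2 called Cdc20 (-2.78, adjusted p = 0.0373). The 2 diet calls were lost without the first WT HFCF liver and in some other alternatives, while the genotype calls on chow held in each one in which the gene was tested.

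The proteins of the spindle, kinetochore and cytokinesis numbered 11 among the tested genes, and 5 of them rose in KO on chow and 3 with diet in WT. Over all tested genes, 9.72% and 7.76% were called higher. Among the called genes of this set, Kif11 and Ect2 reached the filter's level in all 3 WT chow livers. Cenpe, Hmmr, Prc1 and Cenpf did not, which favors positive values in both comparisons. Cenpe, a kinetochore motor, was at 0.715, 0.425 and 0.277 CPM in WT chow and 1.94, 1.24 and 1.51 CPM in KO chow (1.73 ± 0.43, adjusted p = 0.0155), and at 1.76, 0.765 and 0.838 CPM in WT HFCF and 2.33, 1.61 and 1.35 CPM in KO HFCF. Ect2, an activator of the GTPase that drives cytokinesis, was at 0.787, 0.779 and 1.18 CPM in WT chow and 2.82, 1.86 and 1.76 CPM in KO chow (1.24 ± 0.31, adjusted p = 0.0172), and at 2.33, 1.11 and 1.61 CPM and 1.67, 1.96 and 1.69 CPM in the HFCF groups, WT first. In both genes the KO chow livers lay above all WT chow livers, and each call was lost in 3 of 20 alternatives, among them without the first KO chow liver and without the second WT chow liver. Prc1, which bundles the microtubules of the central spindle, was at 0.501, 0.566 and 0.899 CPM in WT chow and at 2.66, 1.1 and 1.13 CPM in KO chow (1.33 ± 0.40, adjusted p = 0.0373). In the HFCF livers it was at 2.22, 1.81 and 1.42 CPM in WT (diet in WT 1.46 ± 0.39, adjusted p = 0.026) and 2.11, 1.54 and 1.91 CPM in KO. The first KO chow liver was more than 1 CPM above its group mates, and the call on chow was lost in 6 of 20 alternatives, including without that liver, with limma voom and with only the groups compared. Its diet call was lost in 4 of 20, including without the first WT HFCF liver (1.28, adjusted p = 0.0944). Exons of Prc1 overlap the opposite-strand gene Rccd1 over 11.1% of their length.

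Cenpf, a kinetochore protein of late G2 and mitosis, was at 0.715, 0.354 and 0.83 CPM in WT chow and rose with diet in WT to 2.56, 1.32 and 1.48 CPM (1.5 ± 0.41, adjusted p = 0.0264), a call that was lost without the first WT HFCF liver (1.14, adjusted p = 0.123) and without the first or second WT chow liver. It was at 2.21, 0.897 and 1.39 CPM in KO chow (1.26 ± 0.41, adjusted p = 0.0554, and 0.0346 without the first WT HFCF liver) and at 1.31, 1.26 and 1.63 CPM in KO HFCF. Kif11, the motor that pushes spindle poles apart, rose in KO on chow from 1.64, 1.77 and 1.59 CPM to 2.88, 2.97 and 2.52 CPM (0.74 ± 0.21, adjusted p = 0.031), the smallest rise among the called mitotic genes, which was lost in 6 of 20 alternatives, DESeq2 among them (adjusted p = 0.0748). Its HFCF livers were at 2.39, 1.6 and 2.38 CPM in WT, overlapping WT chow, and 2.18, 3.15 and 2.64 CPM in KO. Birc5, survivin of the chromosomal passenger complex, was at 1, 0.708 and 0.691 CPM in WT chow, 1.72, 1.59 and 1.64 CPM in KO chow, 1.88, 1.46 and 1.61 CPM in WT HFCF and 2.69, 1.12 and 1.52 CPM in KO HFCF. Its 2 calls were close to the threshold (genotype on chow 1.04 ± 0.33, adjusted p = 0.0456; diet in WT 1.04 ± 0.33, adjusted p = 0.0486), and they were lost in 11 and 12 of 20 alternatives. Aurka, Aurkb, Bub1b, Kif20a, Kif23, Nusap1, Tpx2 and Anln were not called by edgeR in any comparison, and Anln passed on HFCF with the replicate number as a block (0.75, adjusted p = 0.0495). Among them Aurkb, the passenger complex kinase, had 1.65 ± 0.69 for genotype on chow (adjusted p = 0.119) and 1.83 ± 0.67 for diet in WT (adjusted p = 0.0895).

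Foxm1, a transcription factor of the mitotic gene program, and Bub1, Ube2c and Cep55 did not pass the filter. Foxm1 had 2, 1 and 1 counts in WT chow, 9, 9 and 9 in KO chow, 12, 4 and 2 in WT HFCF and 3, 3 and 6 in KO HFCF. Cep55, an abscission protein, had 2, 2 and 1 counts in WT chow, 6, 8 and 8 in KO chow, 4, 5 and 5 in WT HFCF and 11, 6 and 11 in KO HFCF. In an edgeR fit with no filter, both rose in KO on chow, Foxm1 by 2.46 ± 0.65 (adjusted p = 0.0216) and Cep55 by 1.88 ± 0.53 (adjusted p = 0.0293). The number of the 41 genes called higher there was 14, these 2 and the 12 called with the filter. With the filter, 9.72% of all tested genes were called higher in this comparison, and the share without it is not given here. Bub1 had 0, 1 and 2 counts in WT chow and 17, 3 and 2 in WT HFCF, so that its highest value came from the first WT HFCF liver.

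Promoter sequence was available for 35 of the 44 genes, from 250 bases before to 50 after the RefSeq start on GRCm38.p6, and it was searched on both strands for motifs known from cell cycle promoters. The cell cycle homology region (CHR; TTTGAA or TTCGAA), which recruits the DREAM and MuvB complexes of late cell cycle genes, was found in 20 of the 35 (57.1%) against 19.4% of 27025 promoters. CCAAT, the NF-Y motif, was found in 26 (74.3%) against 37.9%, and an E2F motif (TTTCCCGC, TTTCGCGC, TTTGCCGC or TTTGGCGC) in 5 (14.3%) against 2.32%. Of the 15 called genes with a promoter, 9 held a CHR, 11 a CCAAT and 2 an E2F motif. These are matches of letters and not bound sites. The promoters of Mki67 (chr7:135716330-135716629), Cdk1 (chr10:69352863-69353162), Cdc20 (chr4:118437294-118437593) and Mcm6 (chr1:128359656-128359955), all on the minus strand, are shown because the first 3 are mitotic genes that moved together and the fourth is the replication gene called in both genotype comparisons. They run 5′ to 3′ on the gene's strand, and capitals mark the motifs on either strand, which can adjoin or overlap.
Mki67: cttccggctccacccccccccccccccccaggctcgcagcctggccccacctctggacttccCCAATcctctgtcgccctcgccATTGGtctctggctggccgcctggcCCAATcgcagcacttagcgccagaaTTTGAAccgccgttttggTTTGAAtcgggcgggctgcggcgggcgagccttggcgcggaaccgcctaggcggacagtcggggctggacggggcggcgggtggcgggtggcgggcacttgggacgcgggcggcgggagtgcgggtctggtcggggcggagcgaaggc
Cdk1: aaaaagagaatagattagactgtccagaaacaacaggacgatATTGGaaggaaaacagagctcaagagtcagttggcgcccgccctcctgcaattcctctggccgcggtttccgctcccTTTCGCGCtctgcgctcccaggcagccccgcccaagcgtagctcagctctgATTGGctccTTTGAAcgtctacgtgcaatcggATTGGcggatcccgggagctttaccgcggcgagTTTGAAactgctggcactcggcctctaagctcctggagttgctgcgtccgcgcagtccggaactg
Cdc20: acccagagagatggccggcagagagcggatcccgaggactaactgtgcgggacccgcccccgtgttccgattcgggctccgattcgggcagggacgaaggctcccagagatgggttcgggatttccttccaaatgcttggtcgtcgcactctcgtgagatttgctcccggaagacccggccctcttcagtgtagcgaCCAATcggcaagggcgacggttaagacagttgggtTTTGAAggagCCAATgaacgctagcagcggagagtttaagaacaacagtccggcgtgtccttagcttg
Mcm6: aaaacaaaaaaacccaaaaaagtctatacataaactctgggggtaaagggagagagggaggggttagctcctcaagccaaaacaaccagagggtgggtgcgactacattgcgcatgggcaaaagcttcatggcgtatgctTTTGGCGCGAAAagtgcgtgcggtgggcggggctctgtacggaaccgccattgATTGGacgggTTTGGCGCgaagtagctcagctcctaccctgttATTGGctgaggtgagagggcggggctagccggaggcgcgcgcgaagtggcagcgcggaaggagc
Counted from the RefSeq start, the CHR matches began at -116 and -98 in Mki67, at -71 and -15 in Cdk1 and at -18 in Cdc20, and the Mcm6 window held none. CCAAT matches began at -188, -166 and -141 in Mki67, at -208, -80 and -48 in Cdk1, at -53 and -8 in Cdc20 and at -57 and -14 in Mcm6. E2F matches began at -131 in Cdk1 and at -110, -106 and -47 in Mcm6.

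Of the G1 and G1/S cyclins, Ccnd1 rose with diet in WT and Ccne1 rose in KO on chow. Ccnd1 (ENSMUSG00000070348, chr7:144929930-144939869, minus strand) was at 13.9, 16.4 and 10.4 CPM in WT chow and at 34.1, 24.2 and 22.2 CPM in WT HFCF, a log2 fold change of 0.99 ± 0.18 (adjusted p = 0.00314) that held under every alternative run. In KO it was at 20.1, 16.9 and 18.4 CPM on chow and 27.9, 20.8 and 24.3 CPM on HFCF (0.39 ± 0.18, adjusted p = 0.259). All KO chow values of Ccnd1 exceeded those of WT chow, but the difference did not pass (0.45 ± 0.18, adjusted p = 0.114), and the interaction was -0.59 ± 0.25 (adjusted p = 0.325). Exons of Ccnd1 overlap the opposite-strand gene LTO1 over 23.4% of their length. Ccne1, the cyclin E1 that starts S phase, was at 0.358, 0.92 and 0.622 CPM in WT chow and 1.61, 1.1 and 1.89 CPM in KO chow (1.27 ± 0.38, adjusted p = 0.0379). On HFCF it was at 1.42, 1.04 and 0.966 CPM in WT and 2.03, 1.54 and 3.04 CPM in KO (0.95 ± 0.32, adjusted p = 0.0552). Its call on chow was lost in 5 of 20 alternatives, and edgeR called Ccne2 in no comparison, except for diet in WT with the replicate number as a block (0.46, adjusted p = 0.0475).

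E2f1 (chr2:154559406-154569892, minus strand), the transcription factor of replication genes, rose with diet in WT from 1.29, 0.92 and 0.968 CPM to 3.98, 2.09 and 2.13 CPM (1.38 ± 0.29, adjusted p = 0.00778). The KO livers stood at 1.27, 1.93 and 1.58 CPM on chow and 1.53, 1.61 and 1.58 CPM on HFCF, so that the WT HFCF livers lay above all 9 others. The diet effect in KO was -0.01, the genotype difference on HFCF was -0.81 ± 0.27 (adjusted p = 0.0522, and past the threshold with RLE scaling), and the interaction was -1.39 ± 0.42 (adjusted p = 0.153).

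Of the 7 tested genes of the MCM helicase and its clamp, edgeR called 1, Mcm6 (ENSMUSG00000026355, chr1:128331590-128359656, minus strand). This was 14.3% of the 7 in each genotype comparison, beside 9.72% of all tested genes called higher on chow and 10.6% on HFCF. The median log2 fold changes of the 7 were 0.64 with diet in WT, 0.43 with diet in KO, 0.52 for genotype on chow and 0.30 for genotype on HFCF. Mcm6 was at 3.58, 4.18 and 3.8 CPM in WT chow, 6.37, 6.21 and 7.56 in KO chow, 8.3, 4.87 and 4.7 in WT HFCF and 10, 7.69 and 9.39 in KO HFCF. It rose in KO on chow by 0.80 ± 0.21 (adjusted p = 0.0221), with no overlap between the livers (lost in 3 of 20 alternatives), and on HFCF by 0.59 ± 0.20 (adjusted p = 0.0494), where the first WT HFCF liver overlapped the KO range. The HFCF call was lost in 15 of 20 alternatives, and without that liver the adjusted p was 0.00129. For diet in WT, Mcm6 was not called in the reported edgeR fit, while DESeq2 called it higher (0.65, adjusted p = 0.045). So did edgeR without the second or the third WT HFCF liver (adjusted p = 0.0499 and 0.0292). Mcm5, of the same helicase, was at 1.5, 1.42 and 1.24 CPM in WT chow and 1.83, 2.76 and 2.77 CPM in KO chow, and at 5.17, 1.88 and 1.61 CPM and 5.45, 4.41 and 5.23 CPM in the HFCF groups, WT first. Its log2 fold changes for diet were 1.08 in WT (adjusted p = 0.0852) and 1.05 in KO (adjusted p = 0.113), with the first WT HFCF liver far above the other 2. Without that liver Mcm5 passed with diet in KO (1.05, adjusted p = 0.00683), for genotype on chow (0.81, adjusted p = 0.0241) and on HFCF, as given above. DESeq2 called Mcm5 for diet in WT (adjusted p = 0.0424) and limma voom called it on HFCF (0.95, adjusted p = 0.0483). Pcna stayed between 11 and 14.8 CPM in all 12 livers, with log2 fold changes of 0.05 to 0.16 in the 4 comparisons of 2 groups. Mcm2, Mcm3, Mcm4 and Mcm7 were not called by edgeR. DESeq2 called Mcm3 for diet in WT (0.71, adjusted p = 0.0348), and the fit of only the groups compared called Mcm2 in KO on chow (0.62, adjusted p = 0.0427). Mcm4 passed there without the first WT HFCF liver (0.52, adjusted p = 0.0484).

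None of the 4 genes of deoxynucleotide supply was called in the reported edgeR fit, by DESeq2 or by limma voom. Their summed level was 36.2 ± 1.54 CPM (SD, n = 3) in WT chow, 40.4 ± 1.09 in KO chow, 42.3 ± 1.99 in WT HFCF and 49.8 ± 5.06 in KO HFCF. The nearest to the threshold was Tyms, thymidylate synthase. Its diet effect in WT was 0.45 ± 0.14 (adjusted p = 0.0524), and edgeR called it with RLE scaling (adjusted p = 0.049) and with the stricter filter (adjusted p = 0.0484). In KO its diet effect was 0.55 ± 0.14 (adjusted p = 0.0543, and 0.043 without the first WT HFCF liver). Rrm1, the large subunit of ribonucleotide reductase, had 0.37 ± 0.13 for genotype on chow (adjusted p = 0.0737, and 0.0353 without the first WT HFCF liver), and its small subunit Rrm2 had -0.05 ± 0.26. Tk1 ran from 0.09 to 0.40 over the 4 comparisons of 2 groups, none of which passed.

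Cdkn1a (ENSMUSG00000023067, chr17:29090978-29100722, plus strand) encodes p21, an inhibitor of cyclin-dependent kinases and a p53 target. It was at 5.58, 1.98 and 2.35 CPM in WT chow, 5.2, 4.76 and 4.73 in KO chow, 2.62, 0.695 and 1.03 in WT HFCF and 4.43, 3.78 and 3.21 in KO HFCF. The KO livers were close to each other, and in each WT group the first liver was more than 1 CPM above the other 2. Cdkn1a was higher in KO on HFCF by 1.34 ± 0.42 (adjusted p = 0.04), with no overlap between the 3 livers of each group, and on chow the groups overlapped (0.57 ± 0.37, adjusted p = 0.325). Its log2 fold change with diet in WT was -1.14 ± 0.43 (adjusted p = 0.0975), which DESeq2 called lower, as did edgeR without the first WT HFCF liver (-1.91, adjusted p = 0.0176). The call on HFCF was lost in 7 of 20 alternatives, all of them with 1 liver left out, and the adjusted p over the 20 ran from 0.00438 to 0.138. Without the first WT HFCF liver the log2 fold change was 2.11 (adjusted p = 0.00438).

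A list of further p53 target genes held calls in KO under both diets. Of its 21 tested genes, 9 rose and 1 fell in KO on chow, and 10 rose and 1 fell on HFCF. Over all tested genes, 9.72% and 10.6% were called higher, and 5.82% and 8.52% lower. The median log2 fold changes of the 21 were 0.44 and 0.31, against 0.00413 and 0.0201 over all tested genes. Eda2r was at 1.22, 0.566 and 0.691 CPM in WT chow and 4.76, 5.66 and 4.85 CPM in KO chow (2.61 ± 0.29, adjusted p = 9.2e-05), and at 2.33, 1.11 and 1.61 CPM and 4.58, 6.64 and 5.63 CPM in WT and KO HFCF (1.71 ± 0.25, adjusted p = 0.000433). Phlda3, an inhibitor of Akt signalling, rose by 2.28 ± 0.30 on chow (adjusted p = 0.000299) and 1.93 ± 0.26 on HFCF (adjusted p = 0.000247). In both genes every KO liver lay above every WT liver of its diet. Plk2 (0.81 ± 0.13, adjusted p = 0.00163) and Zmat3 (0.92, adjusted p = 0.00732) rose on chow, Ccng1 (0.50, adjusted p = 0.00821) rose on HFCF, and Perp was lower on HFCF (-0.35, adjusted p = 0.00402). The counts of genes that rose fell to 4 on chow without the third WT chow liver and to 4 on HFCF without the second WT HFCF or the first KO HFCF liver. With diet in WT, Gadd45a, a stress-response gene, rose by 2.21 ± 0.31 (adjusted p = 0.000588), Btg2 rose by 1.46 (adjusted p = 0.0496) and Ei24 fell by 0.34 on the log2 scale (adjusted p = 0.0098). Thus 9.52% of the 21 rose and 4.76% fell, beside 7.76% of all tested genes called higher and 5.9% lower. With diet in KO no gene of the list was called.

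**Figure D4:**
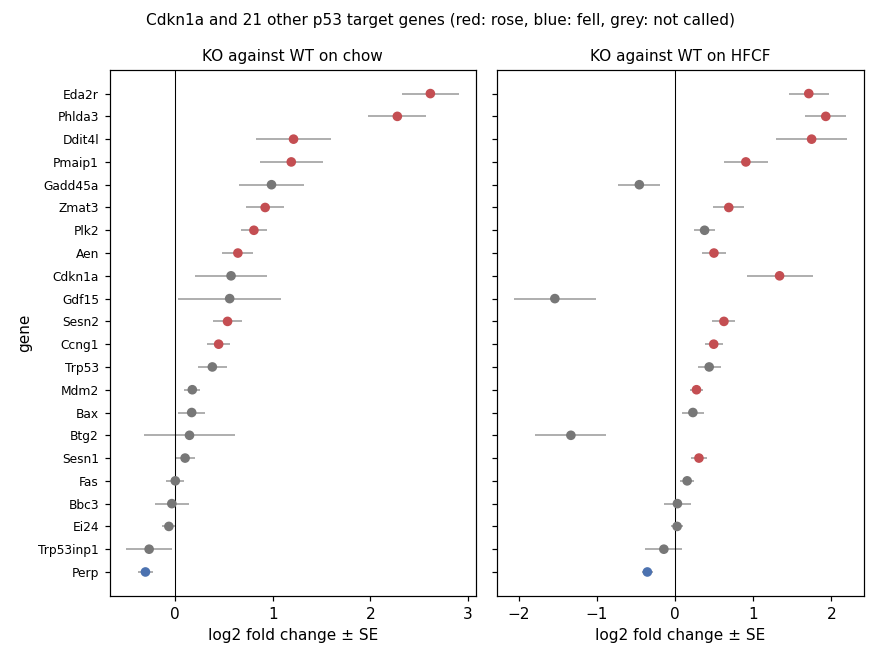
Log2 fold change (points, with the standard error as bars) of Cdkn1a and 21 other p53 target genes for KO against WT on chow (left) and on HFCF (right); red marks genes that rose, blue those that fell and gray those not called. Eda2r (2.61 and 1.71) and Phlda3 (2.28 and 1.93) are red in both panels, and Cdkn1a is red on HFCF (1.34) and gray on chow (0.57).

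Other genes of the same pathways gave smaller counts. Of 37 further replication genes tested, 5 rose with diet in WT and none fell, beside 7.76% of all genes called higher, and the median was 0.21. Among them were Uhrf1, which maintains DNA methylation at replication (2.63 ± 0.62, adjusted p = 0.0135), the licensing inhibitor Gmnn (0.71, adjusted p = 0.0135) and Pola1. None of the 5 was left without the first WT HFCF liver. Uhrf1 also rose in KO on chow (2.24 ± 0.65, adjusted p = 0.0327), the 1 call of this list there, and on HFCF Prim2, Cdt1 and Pole rose. These calls were 2.7% and 8.11% of the 37, below the 9.72% and 10.6% of all tested genes called higher. Uhrf1 was at 0.0715, 0.0708 and 0.346 CPM in WT chow, 0.83, 0.759 and 0.819 in KO chow, 1.82, 0.835 and 0.451 in WT HFCF and 1.38, 1.12 and 1.58 in KO HFCF. The WT chow livers lay below all others.

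Of 40 further mitotic genes tested, 7 rose and 1 fell in KO on chow, 5 rose with diet in WT, and 1 rose and 2 fell in KO on HFCF. Over all tested genes 9.72%, 7.76% and 10.6% were called higher in these comparisons, against 17.5%, 12.5% and 2.5% of the 40. Ncapg2, of condensin II, rose in both, by 1.57 ± 0.30 (adjusted p = 0.00383) and 1.22 (adjusted p = 0.0191). The kinetochore gene Spc25 rose in KO on chow (1.43 ± 0.29, adjusted p = 0.00594), and its partner Spc24 rose with diet in WT (0.90 ± 0.15, adjusted p = 0.00177) and was lower in KO on HFCF (-0.81 ± 0.15, adjusted p = 0.00195). Pttg1, securin, was lower in KO on chow (-0.32 ± 0.08, adjusted p = 0.0174) and on HFCF (-0.27, adjusted p = 0.0356). The count that rose was 1 with diet in WT without the first WT HFCF or the second WT chow liver, and 2 on chow without the second WT chow or the first KO chow liver.

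Among 22 tested G1 regulators and CDK inhibitors, Cdk4, the kinase partner of D cyclins, fell with diet in WT by 0.35 on the log2 scale (adjusted p = 0.0102) and was higher in KO on HFCF (0.54 ± 0.08, adjusted p = 0.000348). Also on HFCF, Myc was higher in KO (1.35 ± 0.39, adjusted p = 0.0275), as was Rbl2 (0.24, adjusted p = 0.0178), and the inhibitor Cdkn1c was lower (-0.66, adjusted p = 0.0283), among 5 genes that rose and 1 that fell, beside 10.6% of all tested genes called higher and 8.52% lower. On chow Ccnd2 (0.77, adjusted p = 0.0204), Rbl1 (0.80, adjusted p = 0.0243) and Cdkn2c (0.54, adjusted p = 0.0489) rose in KO and none fell, 13.6% of the 22 against 9.72% of all tested genes. These counts went down to 1 on HFCF without any 1 KO HFCF liver and to 0 on chow without the third WT chow, the first KO chow or the third KO chow liver.

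Replication-dependent histone genes, whose mRNAs lack a poly(A) tail and were kept by ribosomal RNA depletion, showed little difference in their sum, with group means closer to each other than the largest SD within a group. The 42 genes summed to 425 ± 56.8 CPM in WT chow, 441 ± 46.0 in KO chow, 409 ± 17.9 in WT HFCF and 399 ± 53.7 in KO HFCF (SD, n = 3). Of 37 tested, 3 rose and 1 fell in KO on chow, 1 rose with diet in WT, and 2 rose and 2 fell in KO on HFCF. The shares that rose, 8.11%, 2.7% and 5.41%, were below the 9.72%, 7.76% and 10.6% of all tested genes. Hist1h1d rose in KO on chow (1.17, adjusted p = 0.0116) and with diet in WT (1.20, adjusted p = 0.0109), Hist1h1b was higher in KO on HFCF (1.78, adjusted p = 0.0075), and Hist1h4b was lower there (-1.09, adjusted p = 0.0044). Histone genes have near-identical copies, so that the assignment of reads to a single copy is uncertain.

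Markers of other cell types moved with the genotype and, in part, with the diet. Macrophage and monocyte markers (17 of 18 listed in the table) summed to 496 to 540 CPM in WT chow, 735 to 774 in KO chow, 441 to 804 in WT HFCF and 892 to 940 in KO HFCF. Of them, 12 of 17 rose in KO on chow, 8 of 17 in KO on HFCF and 4 of 17 with diet in WT. Over all tested genes, 9.72%, 10.6% and 7.76% were called higher in these comparisons. The first WT HFCF liver held the 804 CPM, against 536 and 441 in the others. Mki67, Ccnd1, E2f1 and Mcm6 were among the cell cycle genes that were highest of the group in that liver, while Tk1, Pcna and Ccne2 were lowest there. T and NK cell markers (13 of 14) summed to 3.19 to 4.86 CPM in WT chow, 9.45 to 16.0 in KO chow, 3.74 to 5.34 in WT HFCF and 12 to 18.4 in KO HFCF. B cell markers (7 of 8) summed to 4.32 to 6.64, 13.6 to 16.4, 5.03 to 6.40 and 9.17 to 10.8 CPM in these groups. Both sets were thus higher in all KO livers and did not overlap with WT, while the WT groups overlapped each other.

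Of the remaining sets, neutrophil markers (3 of 10) summed to 2.62 to 3.36 CPM in WT chow, 4.93 to 6.69 in KO chow, 2.06 to 3.70 in WT HFCF and 5.10 to 6.47 in KO HFCF. Stellate cell and fibroblast markers summed to 519 to 633, 725 to 742, 700 to 817 and 622 to 821 CPM, and cholangiocyte markers (6 of 8) to 33.1 to 48.0, 60.6 to 99.0, 53 to 97.2 and 52.2 to 74.5 CPM. The cholangiocyte sums of the WT chow livers lay below all others, while the stellate sums of WT chow overlapped those of KO HFCF. With diet in WT, 3 of the 6 cholangiocyte markers had a positive and 3 a negative log2 fold change (median -0.05). In KO on chow all 6 were positive (median 0.24). In each of these comparisons 1 of the 6 was called, so the sums do not stand for every marker. Endothelial markers (8 of 8) summed to 473 to 486, 509 to 534, 469 to 539 and 481 to 517 CPM. Erythroid markers (4 of 8) summed to 109 to 125, 82.2 to 97.0, 150 to 174 and 89.0 to 128 CPM and were highest in WT HFCF. Hepatocyte markers summed to 48634 to 50101 CPM in WT chow and 38867 to 43875 CPM in WT HFCF, which did not overlap, and to 44380 to 51247 in KO chow and 46540 to 47402 in KO HFCF. With diet in WT 2 of the 7 fell, beside 5.9% of all tested genes called lower, and the first WT HFCF liver had the lowest sum of the 12. At most 1 T and NK marker in a WT chow liver and 3 in a WT HFCF liver were at 0, and no marker of the other sets was. The part of these cells in the levels of the cell cycle genes was not tested.

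**Figure D5:**
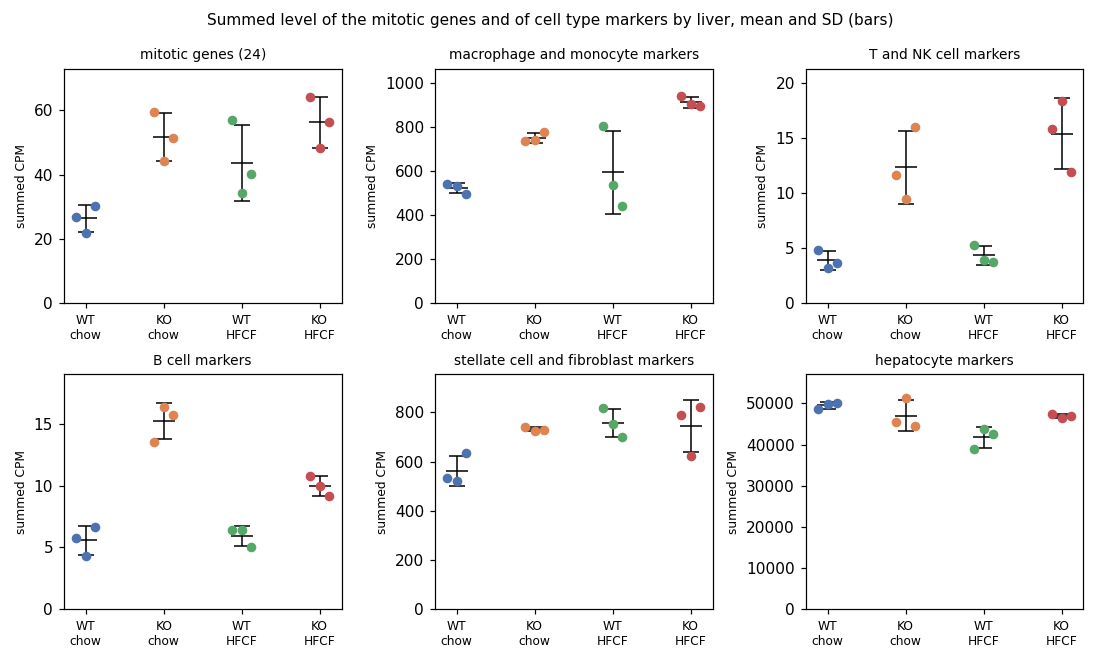
Summed CPM of the 24 measured mitotic genes and of 5 marker sets in the 12 livers (points, grouped by genotype and diet, with bars for the mean and SD over 3 livers; axes start at 0). The T and NK and B cell sums are higher in every KO liver than in every WT liver, whereas the mitotic sum is lowest in the 3 WT chow livers.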

How the data were processed

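Stranded libraries of ribosomal-RNA-depleted total RNA were sequenced from 12 livers, per the labels' protocols. The table deposited by the authors holds raw counts for each Ensembl gene in each library, per the file headers. Beside them stand the FPKM values deposited by the authors, and dividing each count by length and library total gave the same values. FPKM served only to compare levels between genes. The submitters' processing notes name the build mm10. Aligner, counter, strand setting and annotation release are not given in the sources used here. The table lists only genes whose highest count was at least 10. All count columns matched a sample by name.

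Genes were kept by filterByExpr (minimum count 10, minimum total 15), so that 14736 were tested and 1110 were not. After TMM scaling, glmQLFit and glmQLFTest of edgeR 4.0.16 (R 4.3.3) were run on 4 group means over 12 livers. The common biological coefficient of variation was 0.119. P-values were adjusted by Benjamini-Hochberg over all tested genes in each of 5 comparisons, with a threshold of 0.05, and log2 fold changes are given ± SE. The pipeline was tested on simulated data. Libraries held 13967116 to 18324134 counts, and within each group they differed by more than sampling noise. Total depth limits precision for genes of a few counts per liver.

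The genes and all lists were chosen with earlier results of these data known. Genes called in any comparison, and Mki67, Ccnd1 and Cdkn1a, were described by liver, and up to 4 genes per comparison with the lowest adjusted p under 0.05 were taken from each further list. Results of a few such genes are not reported here. Other called genes of those lists that are named, and the below-filter and uncalled genes given with values, were chosen after their values were seen. Exon overlaps came from GENCODE M21 and promoters from RefSeq. The alternatives tried were scaling by RLE or upper quartile, no filter and a stricter one (at least 1 CPM in 3 libraries), DESeq2 1.42.0, limma voom (limma 3.58.1), the replicate number as a block, only the groups compared, and each liver left out. Plots used matplotlib 3.10.9 and pandas 2.3.3 in Python 3.11.15.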

Additional observations from a re-analysis of the deposited data

How the results depend on the processing

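Under the 20 alternatives (19 for the interaction) no called gene of the 37 changed direction. Of 185 values over 5 comparisons, 46 changed sign at least once, none of them called. Mki67, Cdk1, Ccnd1 and E2f1 kept their call for diet in WT under every alternative, and Mki67, Top2a, Cdk1 and Cdc20 did so for genotype on chow. Cdkn1a was called lower with diet in WT by DESeq2 and with the replicate block, giving 1 lower gene. With diet in KO, DESeq2 called 656 of all genes and the fit of only the groups compared 603 (390 in the reported fit), and the latter called 1 of the 37 genes higher (Mcm5). For genotype on HFCF the number called higher (2) was 1 with RLE scaling, with no filter, with the stricter filter and with only the groups compared, 4 with limma voom and 5 with the replicate block, and RLE called 1 lower (E2f1). In the interaction DESeq2 called 2 lower among 344 genes in all (117 in the reported fit).

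With 1 liver left out, the number called higher ran from 4 to 15 for diet in WT, 0 to 2 for diet in KO, 6 to 16 for genotype on chow and 0 to 7 for genotype on HFCF. The value 7 was reached without the first WT HFCF liver. The number called lower ran from 0 to 1 for diet in WT, for genotype on HFCF and in the interaction. All genes called ran from 1100 to 2264 for diet in WT, 157 to 776 for diet in KO, 1152 to 2788 for genotype on chow and 2042 to 2834 for genotype on HFCF. In the interaction they ran from 11 to 136. Livers in neither group of a comparison also entered the shared fit, so that leaving them out could move its calls.

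The replicate numbers did not pair the livers: of 18 same-number pairs 4 had a correlation of deviations over 0.1 (range -0.148 to 0.167), and 0 livers correlated best with their own number in all 3 other groups. Apart from the 5 genes called higher on HFCF and the 1 called lower with diet in WT, the replicate block left the counts of the 37 genes within 1.5 times. Genes of 2 to 4 counts per liver, such as Cdc20 and Hmmr in WT chow, are limited by depth, and the cause of the differences between alternatives was not tested.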

Other observations

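Across the 12 livers, the log2 CPM of the other 36 tested cell cycle genes had a median correlation with Mki67 of 0.775, and 27 were above 0.5. The closest were Top2a (0.96), Cdk1 (0.94), Cenpe (0.92) and Mcm6 (0.87), and the least alike were Mcm7 (-0.15), Rrm2 (0.01), Tk1 (0.29), Ccne2 (0.30) and Pcna (0.32). With the group means removed, the median was 0.476 and 16 of the 36 were above 0.5. Cenpf (0.844) and the inhibitor Cdkn1a (0.842) were highest there, and no such values were computed over all genes. Ccne2 (-0.75), Pcna (-0.63) and Tk1 (-0.55) ran opposite to Mki67 there. The livers share library and depth across genes, and these values are a description with no test.

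All 41 measured genes summed to 125 ± 2.44 CPM in WT chow, 172 ± 10.2 in KO chow, 173 ± 25.2 in WT HFCF and 203 ± 15.7 in KO HFCF (SD, n = 3). The WT HFCF livers had the widest spread of the 4 groups, from 158 to 202 CPM.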
